A study of Ostrinia furnacalis with 30 samples.

Results

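The odorant-binding and chemosensory protein genes of the Asian corn borer, Ostrinia furnacalis, were the 32 annotated gene models whose deposited description names an odorant-binding protein, a pheromone-binding protein, a chemosensory protein, an ejaculatory bulb-specific protein or allergen Tha p 1. They were found by these words alone, among 17284 annotated gene models and 20852 gene models in all. By description, 5 were pheromone-binding (4 pheromone-binding protein-like genes and 1 pheromone-binding protein-related gene), 4 were general odorant-binding protein (GOBP) 1 or 2, 12 were other odorant-binding proteins (OBPs) and 11 were chemosensory proteins (CSPs). Genes are given below by the symbol of the deposited table.

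OBPs are small soluble proteins that are secreted into the fluid around olfactory neurons, where they carry odorants to the receptors in the neuron membrane. In moths the pheromone-binding proteins bind sex pheromone components in the antenna, and the general odorant-binding proteins are thought to bind odours of plants. CSPs form a separate family of small soluble proteins, found in antennae and legs and also in tissues with no part in smell or taste. Ejaculatory bulb-specific protein 3 of Drosophila, allergen Tha p 1 of the pine processionary moth and the A10 protein of Drosophila antennae all belong to the CSP family, although A10 carries an odorant-binding name in this annotation and was counted there.

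RNA was sequenced from wild-type whole animals at 6 stages, namely the embryo, the 1st, 3rd and 5th larval instars, the pupa and the adult, and from the hemolymph, midgut, fat body and silk gland of 3rd instar larvae, with 3 libraries for each stage or tissue and 30 in all. Each library came from a pool of several animals, and females and males were mixed for pupae and adults, so no value here separates the sexes. Antennae, legs and heads were not sampled on their own. In pooled RNA of whole animals, fewer cells of a type and less RNA per cell cannot be told apart.

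Values are FPKM (fragments per kilobase of gene and 1000000 fragments), as deposited. The libraries held 10908503 to 17774377 fragments, and a scaling between libraries of 0.447 to 2.42 is part of the values. Among marker genes of the tissues, 7 of 7 hemolymph genes, 3 of 9 midgut genes, 9 of 9 fat body genes and 4 of 5 silk gland genes were highest in their own tissue. Each list, summed, was higher in all 3 libraries of its own tissue than in the 9 libraries of the others. Of 21 vitellogenin and chorion genes 10 were highest in the adult, where their sum was 2297, 1861 and 446 FPKM in replicates 1, 2 and 3.

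The 32 were spread over 12 scaffolds of the assembly named in the methods (ASM419383v1), and 24 of the 32 shared a scaffold with another. On NW_021137412.1 stood 8 genes, namely the 4 pheromone-binding protein-like genes and the 4 GOBP1 and GOBP2 genes. Of these, 7 lay between 195227 and 218312, and LOC114363573 lay apart at 359498 to 361931. On NW_021130308.1, 6 OBP genes annotated as 28a-, 19a- and 72-like stood between 944937 and 986903. On NW_021132396.1, 5 CSP genes stood between 99496 and 129052 with no other gene model among them. On NW_021137358.1, 4 CSP genes and the A10 gene stood between 189485 and 255024. The other 8 genes stood each on a scaffold with no other member. Another gene model overlapped 7 of the 32, and as the sources used here give no strand setting for the counting, fragments of overlapping genes cannot be told apart.

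**Figure D1:**
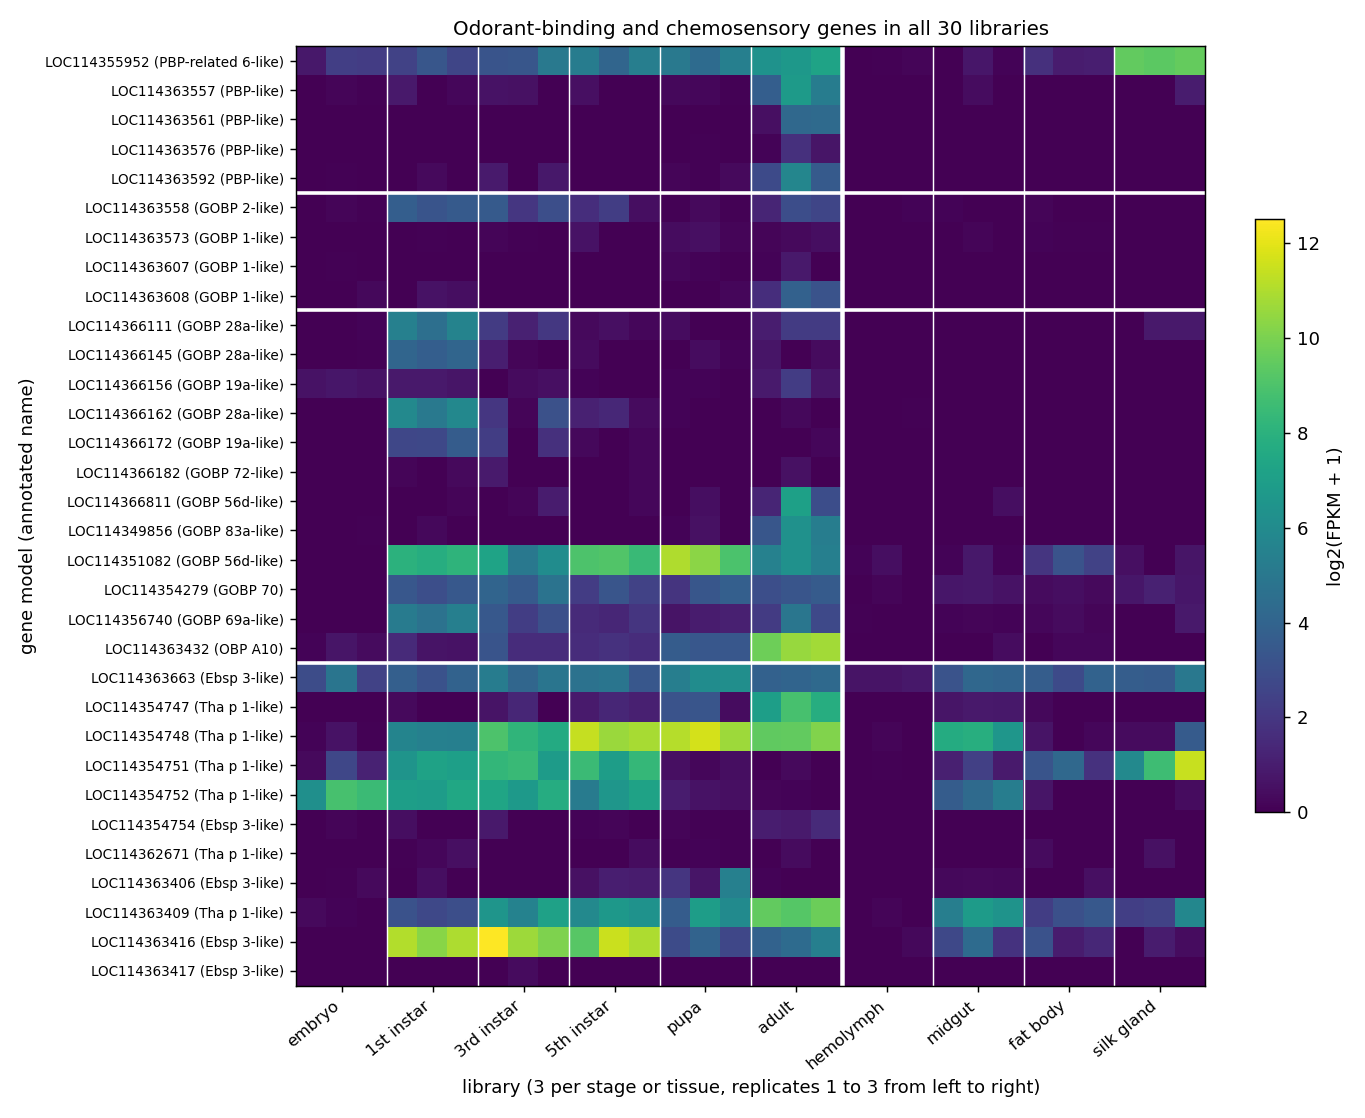
Each row is 1 of the 32 genes, grouped from top to bottom as pheromone-binding, GOBP1 and GOBP2, other OBP and CSP genes, and each column is 1 of the 30 libraries; colour gives log2(FPKM + 1). Most rows are dark in the tissues on the right, and hemolymph holds no gene with a mean of 1 FPKM or more.

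Few of the 32 genes reached a mean of 1 FPKM in embryos, namely 4, while 15 did in 1st instar larvae, 15 in 3rd instar larvae, 14 in 5th instar larvae, 10 in pupae and 21 in adults. The number was 0 in hemolymph, 6 in midgut, 6 in fat body and 5 in silk gland. The stage with the highest mean was the adult for 14 genes, the 1st instar for 7, the pupa for 5, the 3rd instar for 4, and the embryo and the 5th instar for 1 each. That tally includes LOC114363607, LOC114363573, LOC114366182, LOC114362671 and LOC114363417, whose highest stage means were only 0.101 to 0.308 FPKM. The shares over all gene models were not counted. All 5 pheromone-binding genes had their highest stage mean in the adult, against 3 of the 11 CSP genes. The plot of all libraries shows these blocks.

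A few genes held most of the fragments of the 32. In the 1st instar LOC114363416, a CSP gene annotated as ejaculatory bulb-specific protein 3-like, held 63.4% of them, and 67.0% among 3rd instar larvae. Among 5th instar larvae LOC114354748, a Tha p 1-like CSP gene, held 42.1% and LOC114363416 31.2%. In the pupa LOC114354748 held 51.5% and LOC114351082, a GOBP 56d-like gene, 42.4%. In the adult LOC114363432, the A10 gene, held 33.9% and LOC114354748 22.3%. LOC114363416 thus led in the 1st and 3rd instars, LOC114354748 in the 5th instar and the pupa, and the A10 gene in the adult.

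The pheromone-binding protein-like genes of NW_021137412.1 were adult genes in these libraries. LOC114363557 (211461 to 213002, minus strand) had 12.1, 112 and 37.3 FPKM in the adult libraries, against 0.222, 0.158 and 0.0587 FPKM in the pupal ones. LOC114363592 (208294 to 209446, minus strand) had 5.97, 52.6 and 10.7 FPKM in adults, against 0.121, 0.0574 and 0.255 FPKM in pupae. Adult and pupal libraries did not overlap for either gene, which was not counted over all gene models. Every library of the embryo, larvae and tissues was below 1 FPKM for both. LOC114363561 (202192 to 203390, minus strand) had 0.413, 17.6 and 19.2 FPKM in adults and was listed at 0 in the other 27 libraries. LOC114363576 (203851 to 205613, minus strand) had 0.0901, 2.3 and 0.617 FPKM in adults and at most 0.0607 FPKM in any other library. The last 2 genes reached 1 FPKM in fewer than 3 libraries and were not tested. In all 4 genes the adult replicate 1 was the lowest adult library.

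For the tested genes, limma on log2(FPKM + 1), with p-values adjusted over all gene models tested in a pair, gave an adult log2 fold change of 5.07 ± 0.70 (SE) over the pupa for LOC114363557 (adjusted p = 0.000739) and of 3.84 ± 0.69 for LOC114363592 (adjusted p = 0.00235). Against the 5th instar, where LOC114363592 was listed at 0 in all 3 libraries, its adult mean was at least 246-fold higher. That bound sets the 5th instar at 3 fragments over its 3 libraries, at the deposited scaling. Bounds over the embryo, given below, were set the same way. The scaling was 2.36 to 2.42 in embryo libraries, against 0.937 to 1.10 in 1st instar ones. Those bounds are thus smaller when scaled by recovered fragments. On the log2(FPKM + 1) scale the change of genes with low values is understated.

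Of the GOBP genes on the same scaffold, LOC114363608 (GOBP 1-like, 195227 to 196631, plus strand) had 2.14, 13.9 and 8.25 FPKM in adults, against 0, 0 and 0.146 FPKM in pupae. Its adult log2 fold change over the pupa was 2.86 ± 0.53 (limma adjusted p = 0.00271). LOC114363558 (GOBP 2-like, 214764 to 218312, minus strand) was instead a gene of larvae and adults. In order of development its libraries had 0.0278, 0.115 and 0.054 FPKM in embryos, 12.3, 8.61 and 10.6 in 1st instar larvae, 10.6, 2.93 and 7.09 in 3rd instar larvae, 2.13, 3.83 and 0.401 in 5th instar larvae, 0.0442, 0.252 and 0.0467 in pupae and 1.44, 6.79 and 5.21 in adults. It was lower in the 5th than in the 1st instar (log2 fold change -2.04 ± 0.45, limma adjusted p = 0.0121), a call that was lost without 1st instar replicate 1, and higher in the adult than in the pupa (2.14 ± 0.42, adjusted p = 0.0035). The other GOBP 1-like genes, LOC114363607 and LOC114363573, had at most 0.819 and 0.505 FPKM in any library and were not tested. Neighbouring genes of this scaffold therefore differed in both stage and level.

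**Figure D2:**
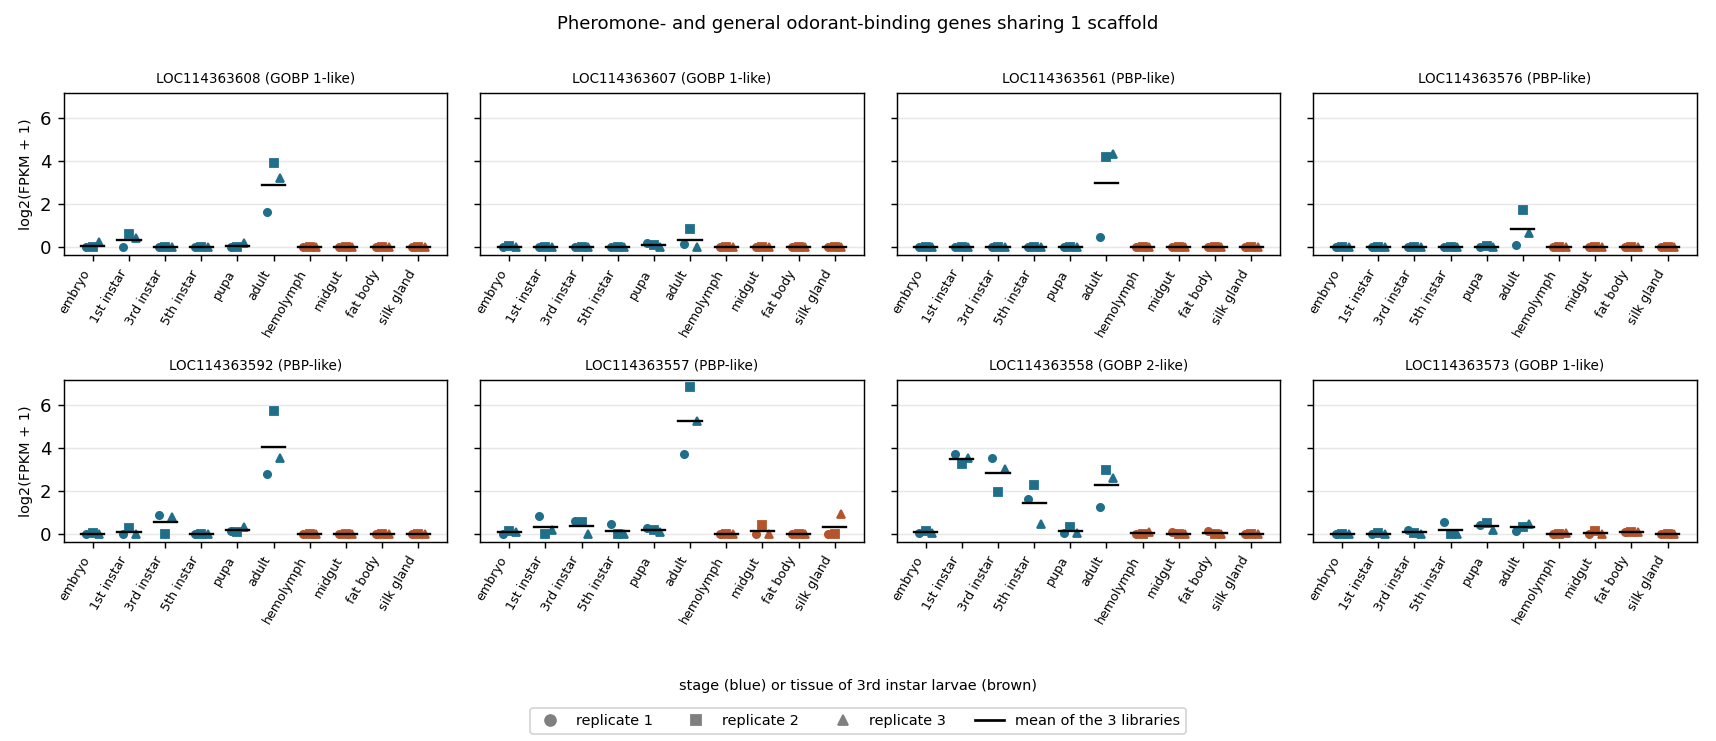
The 8 pheromone-binding and general odorant-binding genes of NW_021137412.1 in scaffold order, with log2(FPKM + 1) for each stage (blue) and larval tissue (brown); symbols are replicates 1 to 3 and the bar is their mean. Every tissue library is below 1 FPKM in all 8 panels, adult replicate 1 is the lowest adult symbol in the panels of the 4 pheromone-binding protein-like genes, and LOC114363558 is the gene that is high in larvae.

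The fifth pheromone-binding gene, LOC114355952 (NW_021132824.1, 179457 to 184426), is annotated as pheromone-binding protein-related protein 6-like and had another pattern. It had 717, 658 and 752 FPKM in silk gland, against 2.32, 0.946 and 1.05 FPKM in fat body, and no midgut or hemolymph library reached 1 FPKM. Its silk gland log2 fold change was 8.23 ± 0.26 over fat body (limma adjusted p = 1.13e-06), the smallest of its 3 tissue comparisons. In whole animals it had 82, 102 and 153 FPKM in adults, against 32.2, 19.7 and 40.6 FPKM in pupae, with a log2 fold change of 1.84 ± 0.32 (adjusted p = 0.00215). It thus was present in animals of every stage, and most abundant in a larval tissue outside the sense organs.

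Other adult genes belonged to the OBP and CSP classes. The A10 gene LOC114363432 (NW_021137358.1, 224724 to 227563) had 860, 1529 and 1726 FPKM in adults, against 11.7, 9.45 and 9.68 FPKM in pupae. That is a log2 fold change of 6.87 ± 0.27 (limma adjusted p = 4.95e-06), and over the 5th instar it was 8.70 ± 0.28 (adjusted p = 2.66e-06). Its neighbour LOC114363409, a Tha p 1-like CSP gene (251437 to 255024), had 734, 594 and 825 FPKM in adults, against 11.5, 126 and 62.6 FPKM in pupae (log2 fold change 3.93 ± 0.76, adjusted p = 0.00331). LOC114363409 lies within an uncharacterized gene model on the other strand. LOC114354747, a Tha p 1-like CSP gene of NW_021132396.1 (126275 to 129052), had 126, 473 and 217 FPKM in adults, against 8.28, 8.86 and 0.34 FPKM in pupae (5.57 ± 0.83, adjusted p = 0.00106). None of these 3 genes had overlapping adult and pupal libraries, and how often that holds over all gene models was not counted. LOC114349856 (NW_021130949.1, 1165083 to 1169125) is annotated after Obp83a, an OBP of Drosophila antennae, and had 9.33, 80.1 and 38.3 FPKM in adults, against 0.0837, 0.477 and 0 FPKM in pupae (4.78 ± 0.69, adjusted p = 0.000913).

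LOC114366811 (GOBP 56d-like, NW_021130933.1, 1662299 to 1663196) had 1.47, 138 and 6.81 FPKM in adults, against 0, 0.381 and 0 FPKM in pupae. Its adult mean rested largely on the library with 138 FPKM. Its log2 fold change of 3.64 ± 1.31 passed the threshold (limma adjusted p = 0.0436), and the call was lost without adult replicate 3, without any 1 of the pupal libraries, without the filter on low values and with limma-voom. Over the 5th instar its log2 fold change was 3.73 ± 1.31 (adjusted p = 0.0432), and that call was lost without adult replicate 3, without any 1 of the 5th instar libraries, without the filter and with limma-voom.

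Taking the adult against each of the 5 earlier stages, 8 of the 17 genes tested in every pair were higher in the adult in every pair, where 7.93% of all gene models tested were. They were LOC114363432, LOC114363409, LOC114354747, LOC114355952, LOC114349856, LOC114363557, LOC114363592 and LOC114363608. The smallest of the 5 log2 fold changes was 6.87 for LOC114363432, against the pupa, and 1.84 for LOC114355952, also against the pupa. Under each alternative run the 8 remained. LOC114366811 joined them with a pseudocount of 0.1, with scaling by recovered fragments, with all libraries in 1 fit and with the replicate block, and both it and LOC114363561 did so without adult replicate 1. A gene could be tested in every pair through its adult libraries alone, so the share of the 17 does not describe the 32.

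Of the 6 OBP genes on NW_021130308.1, 4 were highest in the 1st instar. LOC114366162 (GOBP 28a-like, 951845 to 954920) had 58.9, 32.1 and 56 FPKM in the 1st instar and was listed at 0 in all 3 embryo libraries. On the deposited scale its 1st instar mean was at least 1019-fold higher. LOC114366111 (GOBP 28a-like, 956538 to 959834) had 42, 22.4 and 47.3 FPKM in the 1st instar, against 0, 0 and 0.0891 FPKM in the embryo. LOC114366145 (GOBP 28a-like, 944937 to 947109) had 16.1, 12.5 and 16.1 FPKM in the 1st instar, against 0, 0 and 0.045 FPKM in the embryo. All 3 bear the name of Obp28a, an OBP of Drosophila, and in all 3 the 1st instar libraries stood above every other library of the series. How often that holds over all gene models was not counted. LOC114366172 (GOBP 19a-like, 979740 to 981269) had 5.42, 5.52 and 11.7 FPKM in the 1st instar and 0 FPKM in each embryo library, and it lies within an uncharacterized gene model. The other genes of the row were low, with at most 3.65 FPKM for LOC114366156 (GOBP 19a-like) and 0.846 FPKM for LOC114366182 (GOBP 72-like) in any library.

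By the 5th instar these 4 genes had fallen. LOC114366111 had 0.241, 0.43 and 0.177 FPKM in the 5th instar, with a log2 fold change of -4.84 ± 0.30 against the 1st instar (limma adjusted p = 0.000102). LOC114366162 had 1.23, 1.62 and 0.278 FPKM (log2 fold change -4.63 ± 0.35, adjusted p = 0.000197) and LOC114366145 had 0.273, 0 and 0 FPKM (-3.87 ± 0.19, adjusted p = 5.86e-05). LOC114366111 was higher again in the adult, with 1.03, 3.44 and 3.48 FPKM, against 0.341, 0 and 0 FPKM in the pupa (1.64 ± 0.33, adjusted p = 0.00418).

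**Figure D3:**
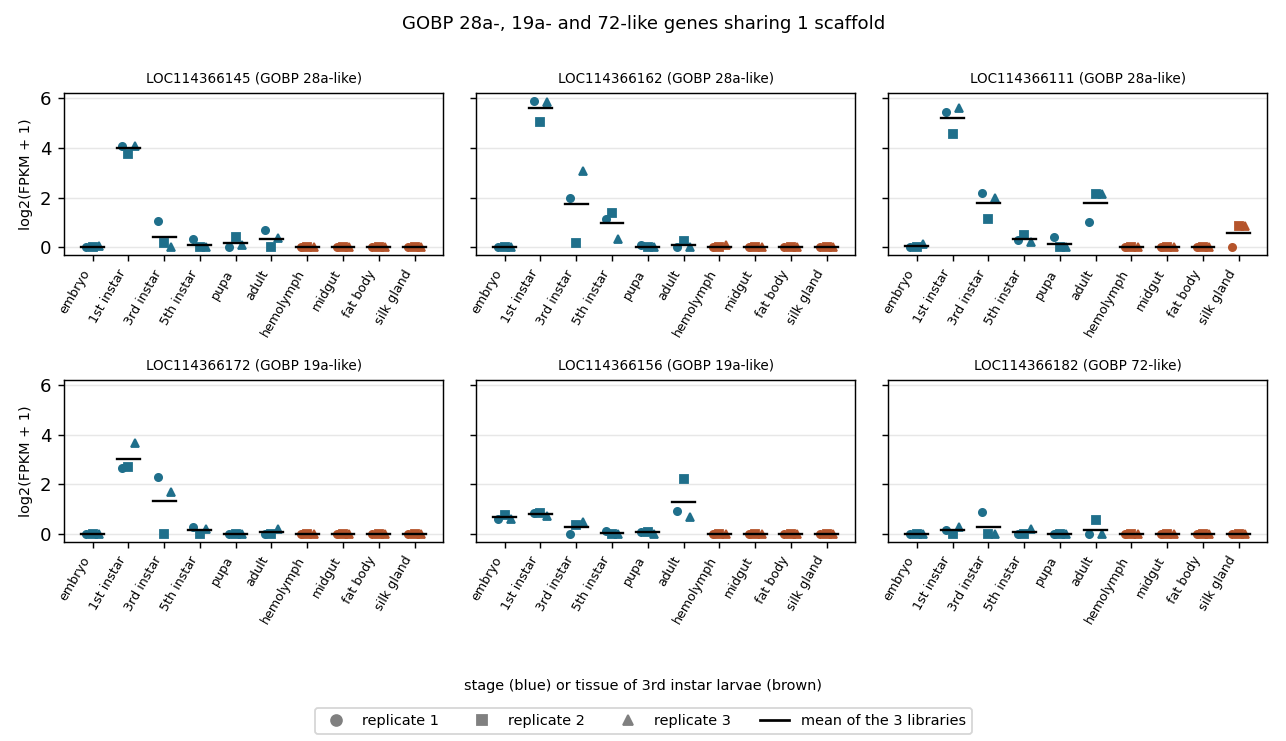
The 6 OBP genes of NW_021130308.1 in scaffold order, with log2(FPKM + 1) by stage (blue) and larval tissue (brown); symbols are replicates and the bar is their mean. The 3 GOBP 28a-like genes and LOC114366172 peak in the 1st instar, and no tissue library reaches 1 FPKM.

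Outside that scaffold, LOC114356740 (GOBP 69a-like, NW_021133126.1, 162441 to 163160) had 35.9, 25.5 and 41 FPKM in the 1st instar and 0 FPKM in each embryo library. On the deposited scale its 1st instar mean was at least 878-fold higher. It had 1.83, 1.53 and 2.8 FPKM in the 5th instar (log2 fold change -3.52 ± 0.25 against the 1st instar, limma adjusted p = 0.000149). In adults it had 3.48, 28.8 and 5.73 FPKM, against 0.556, 0.939 and 1.17 FPKM in pupae (2.37 ± 0.66, adjusted p = 0.0159, a call lost without pupa replicate 1). It lies within a mitoferrin-1-like gene on the other strand.

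LOC114351082 (GOBP 56d-like, NW_021131323.1, 178571 to 182484) was the most abundant OBP gene of larvae and pupae. It was listed at 0 in the 3 embryo libraries and had 259, 223 and 283 FPKM in 1st instar larvae, 154, 30.8 and 66.5 in 3rd instar larvae, 511, 552 and 350 in 5th instar larvae, 2088, 1299 and 501 in pupae and 44.3, 78.7 and 41.5 in adults. Its 1st instar mean was at least 8429-fold higher than that of the embryo on the deposited scale. Its adult log2 fold change was -4.37 ± 0.52 against the pupa (limma adjusted p = 0.000398), whereas the pupa against the 5th instar gave 1.26 ± 0.51, which missed the threshold (adjusted p = 0.104). LOC114354279 (GOBP 70, NW_021132275.1, 550967 to 591018) had 2.68 to 26.5 FPKM in every whole-animal library after the embryo stage and no call after the 1st instar in the comparisons of the 5th instar, pupa and adult.

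Among the CSP genes, the 5 neighbours of NW_021132396.1 each peaked at another stage or level. LOC114354752 (Tha p 1-like, 110339 to 113260) was the member most abundant in the embryo, with 73.6, 464 and 372 FPKM there. It had 130, 118 and 173 FPKM in 1st instar larvae, 165, 106 and 214 in 3rd instar larvae, 35.5, 95.1 and 148 in 5th instar larvae, 0.921, 0.511 and 0.406 in pupae and 0.108, 0.104 and 0 in adults. Its pupal log2 fold change against the 5th instar was -5.65 ± 0.50 (limma adjusted p = 0.0011). LOC114354751 (Tha p 1-like, 116433 to 119919) had 0.419, 0.171 and 0.379 FPKM in the pupa, against 367, 122 and 317 FPKM in the 5th instar (-7.53 ± 0.41, adjusted p = 0.00028). Both were high in larvae and near 0 in pupae and adults, and LOC114354752 was also high in the embryo.

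LOC114354748 (Tha p 1-like, 123076 to 125454), which follows them, rose through the larval stages and stayed high. It had 0.0922, 0.523 and 0.0448 FPKM in embryos, 48.4, 42.9 and 40.8 in 1st instar larvae, 510, 292 and 199 in 3rd instar larvae, 2686, 1605 and 1876 in 5th instar larvae, 2223, 3319 and 1655 in pupae and 699, 730 and 1131 in adults. The 5th instar exceeded the 1st by a log2 fold change of 5.48 ± 0.22 (limma adjusted p = 3.51e-05), and the adult was below the pupa (-1.47 ± 0.31, adjusted p = 0.005). The gene at the start of the row, LOC114354754 (ejaculatory bulb-specific protein 3-like), had at most 1.79 FPKM in any library.

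LOC114363416 (ejaculatory bulb-specific protein 3-like, NW_021137358.1, 215563 to 217358) had the highest mean of all 32 genes, in the 3rd instar. It was listed at 0 in the embryo and had 2158, 1253 and 2029 FPKM in 1st instar larvae, 5817, 1651 and 1095 in 3rd instar larvae, 612, 2954 and 1985 in 5th instar larvae, 6.36, 15 and 5.23 in pupae and 14.3, 19.7 and 40.7 in adults. Its 1st instar mean was at least 36722-fold higher than that of the embryo on the deposited scale. Its pupal log2 fold change against the 5th instar was -7.41 ± 0.64 (limma adjusted p = 0.00104). The adult exceeded the pupa by 1.39 ± 0.47 (adjusted p = 0.0353), but their libraries overlapped. That call was lost under 8 alternatives, among them scaling by recovered fragments (log2 fold change 0.705) and leaving out pupa replicate 1 or 3 or adult replicate 2 or 3. LOC114363416 and the A10 gene, neighbours among the members of that scaffold, thus were abundant at different stages.

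**Figure D4:**
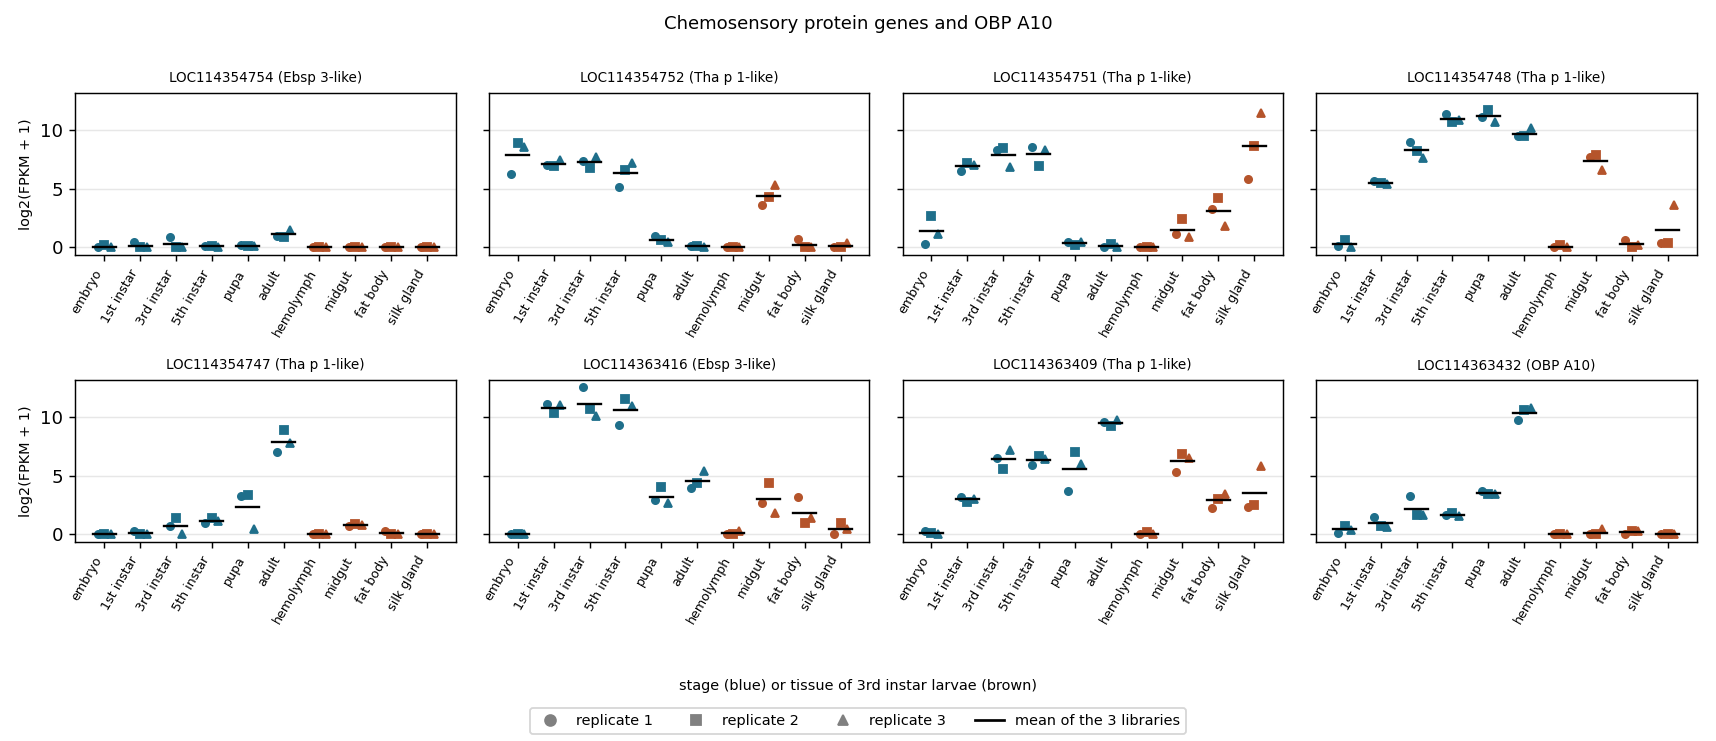
The 5 CSP genes of NW_021132396.1 in scaffold order, then 2 CSP genes and the A10 gene of NW_021137358.1, with log2(FPKM + 1) by stage (blue) and larval tissue (brown); symbols are replicates and the bar is their mean. LOC114354752, LOC114354751 and LOC114363416 are high in larvae and drop in pupae, and LOC114354747 and LOC114363432 are highest in adults.

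LOC114363663 (ejaculatory bulb-specific protein 3-like, NW_021130637.1) was the only member above 0 in all 30 libraries. It had 39.1, 66.7 and 72.6 FPKM in the pupa, against 25.6, 27.7 and 9.47 FPKM in the 5th instar (log2 fold change 1.55 ± 0.44, limma adjusted p = 0.0377). This call was lost without 5th instar replicate 3, without any 1 of the pupal libraries, without the filter and with the replicate block. In adults it had 13.9, 15.5 and 18.1 FPKM, below the pupa (-1.80 ± 0.26, adjusted p = 0.000871). LOC114363406, of the same annotation, had 42.8 FPKM in pupa replicate 3 and at most 2.75 FPKM in any other library. LOC114362671 and LOC114363417, the remaining CSP genes, had at most 0.463 and 0.303 FPKM.

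Counted over the stages, 15 of the 32 genes passed the filter (3 or more of a pair's 6 libraries at 1 FPKM or above) between 1st instar and embryo. Of these, 12 were higher in the 1st instar, against 34.6% of all gene models tested. By limma 0 were lower, against 24.7%; 0 were lower also at an unadjusted p under 0.05 and by limma-voom. LOC114354752 gave a log2 fold change of -0.75 ± 0.65 (adjusted p = 0.323); 1 gene was called lower without embryo replicate 1. The median log2 fold change was 3.96 over the 15 and 0.14 over all gene models. A gene absent from the embryo passed the filter through its 1st instar libraries, so a high share had to be higher. Scaling by recovered fragments moved the median of all gene models by -1.08.

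Between 5th and 1st instar 3 of 16 tested genes were higher in the 5th instar, against 15% of all gene models, and 6 were lower, against 11.6%. The 3 were LOC114354748, LOC114363409 and LOC114355952, and the 6 were the 4 OBP genes of NW_021130308.1 described above, LOC114356740 and LOC114363558. Of the 6, LOC114366111, LOC114366145 and LOC114366172 were below 1 FPKM in every 5th instar library. They passed the filter through the 1st instar alone and had to be lower. The count of lower genes and the median given below thus do not describe all members. LOC114363409 had 58.1, 101 and 82.2 FPKM in the 5th instar, against 8.03, 5.54 and 7.06 FPKM in the 1st (log2 fold change 3.35 ± 0.25, limma adjusted p = 0.000173). LOC114355952 had 37.4, 16 and 40.4 FPKM in the 5th instar, against 4.57, 9.1 and 5.21 FPKM in the 1st (2.09 ± 0.41, adjusted p = 0.00776). The count of higher genes was 5 without 1st instar replicate 1 and also 5 without 5th instar replicate 3. The median was -0.41 over the 16 and 0.02 over all gene models, whose median moved by -0.14 with scaling by recovered fragments.

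Between pupa and 5th instar 2 of 13 tested genes were higher in the pupa, against 7.82%, and 3 were lower, against 12.4%. The higher genes were LOC114363663 and LOC114363432, which had 11.7, 9.45 and 9.68 FPKM in the pupa, against 2.03, 2.49 and 1.99 FPKM in the 5th instar (log2 fold change 1.83 ± 0.17, limma adjusted p = 0.00112). The lower ones were LOC114354751, LOC114363416 and LOC114354752. Of these, LOC114354751 and LOC114354752 were below 1 FPKM in every pupal library. Both passed the filter through the 5th instar alone and had to be lower. These counts were small and moved with the processing. With scaling by recovered fragments, which moved the median of all gene models by 0.75, 4 were higher and 3 lower, so that 57.1% of the called genes were higher, against 40% as deposited. The count of higher genes was 1 without 5th instar replicate 3 or without pupa replicate 1 or 2 and 1 with the replicate block. The count of lower genes was 5 without 5th instar replicate 3. The median was 0.20 over the 13 and 0.03 over all gene models.

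Between adult and pupa 13 of 17 tested genes were higher in the adult, against 21.9% of all gene models, and 3 were lower, against 25%. The 3 lower genes were LOC114351082, LOC114363663 and LOC114354748. The median was 2.37 over the 17 and -0.07 over all gene models, whose median moved by -0.63 with scaling by recovered fragments. Genes such as LOC114363557 and LOC114349856, below 1 FPKM in every pupal and 5th instar library, passed the filter through their adult libraries alone and had to be higher there, so these counts and medians do not describe the 32. Between adult and 5th instar 10 of 19 were higher in the adult, against 20.3%, and 5 were lower, against 24.7%. The 5 were LOC114354751, LOC114354752, LOC114363416, LOC114351082 and LOC114354748. Of these, LOC114354751 and LOC114354752 were below 1 FPKM in every adult library, so they passed the filter through the 5th instar alone. LOC114354751 had 0, 0.244 and 0 FPKM in the adult, against 367, 122 and 317 FPKM in the 5th instar (log2 fold change -7.82 ± 0.41, limma adjusted p = 1.8e-05). The median was 1.68 over the 19 and -0.06 over all gene models, whose median moved by 0.14. Both comparisons share the adult libraries.

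In the dissected tissues of 3rd instar larvae fewer genes were present. For hemolymph 0 of 2 genes tested in all 3 pairs were higher than in each other tissue by limma, where 8.92% of all gene models were. Also 0 were by limma-voom, and every gene tested in a hemolymph pair had a lower level there (5 against midgut, 4 against fat body, 4 against silk gland). No member had a mean of 1 FPKM or more in hemolymph. Genes thus entered these pairs mainly through the other tissue, and their lower level in hemolymph was largely set by the filter. For midgut it was 3 of 5, against 12.3%, for fat body 1 of 4, against 10.3%, and for silk gland 2 of 4, against 9.4%. Most members thus could not be tested between tissues. Here too a gene could enter a pair through its high tissue alone. LOC114355952 did so through silk gland against midgut and hemolymph, LOC114354752 through midgut against fat body, and LOC114351082 through fat body against silk gland. The direction in such pairs was set by the filter, so these shares do not describe all members.

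The 3 midgut genes were CSP genes. LOC114354748 had 209, 228 and 95.2 FPKM in midgut, against 0.308, 0.3 and 11.2 FPKM in silk gland (log2 fold change 5.92 ± 0.87, limma adjusted p = 0.00113). LOC114354752 had 11.5, 19.1 and 38.5 FPKM in midgut, against 0.62, 0 and 0 FPKM in fat body (4.19 ± 0.44, adjusted p = 0.000207). LOC114363409 had 39.3, 116 and 86.3 FPKM in midgut, against 4.06, 4.48 and 54.4 FPKM in silk gland, where replicate 3 overlapped the midgut range. Its call (2.69 ± 0.92, adjusted p = 0.0472) was lost without any 1 of the midgut libraries, without silk gland replicate 1 or 2, without the filter and with a pseudocount of 0.1.

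The fat body gene was LOC114351082, the GOBP 56d-like gene, with 2.85, 8.3 and 4.52 FPKM in fat body, against 0.404, 0 and 0.612 FPKM in silk gland (log2 fold change 2.15 ± 0.38, limma adjusted p = 0.00358). In whole 3rd instar larvae it had 30.8 to 154 FPKM. The silk gland genes were LOC114355952, described above, and LOC114354751. LOC114354751 had 57.3, 389 and 2806 FPKM in silk gland, against 8.53, 17.6 and 2.47 FPKM in fat body (5.55 ± 1.32, adjusted p = 0.013). Its silk gland libraries were far apart, while those of LOC114355952 lay between 658 and 752 FPKM. The call of LOC114354751 was lost without fat body replicate 3 and with limma-voom, which left 1 silk gland gene.

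Whole 3rd instar larvae also hold parts that were not dissected, such as epidermis, muscle and the head with its antennae and mouthparts. Of 13 genes that passed the filter over these libraries, 8 had all 3 whole-larva libraries above all 12 tissue libraries, where 7.85% of all gene models did. Of the 8, LOC114363432, LOC114356740, LOC114366111 and LOC114363558 were below 1 FPKM in every tissue library and passed the filter through the whole larvae alone, so their place among the 8 was set by the filter. The same 8 did so when values were scaled by recovered fragments. Of these, 7 were OBP or CSP genes named above (LOC114363416, LOC114351082, LOC114363432, LOC114354752, LOC114356740, LOC114354279 and LOC114366111) and 1 was the GOBP 2-like gene LOC114363558. LOC114363416 had 1095 to 5817 FPKM in whole larvae, against 0 to 19.7 FPKM in the tissues. LOC114363558 had 2.93 to 10.6 FPKM in whole larvae, against 0 to 0.119 FPKM in the tissues. LOC114354279 had 10.8 to 26.5 FPKM in whole larvae, against 0 to 1.19 FPKM in the tissues. In the other 5 genes a midgut or silk gland library reached into or above the range of the whole larvae.

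**Figure D5:**
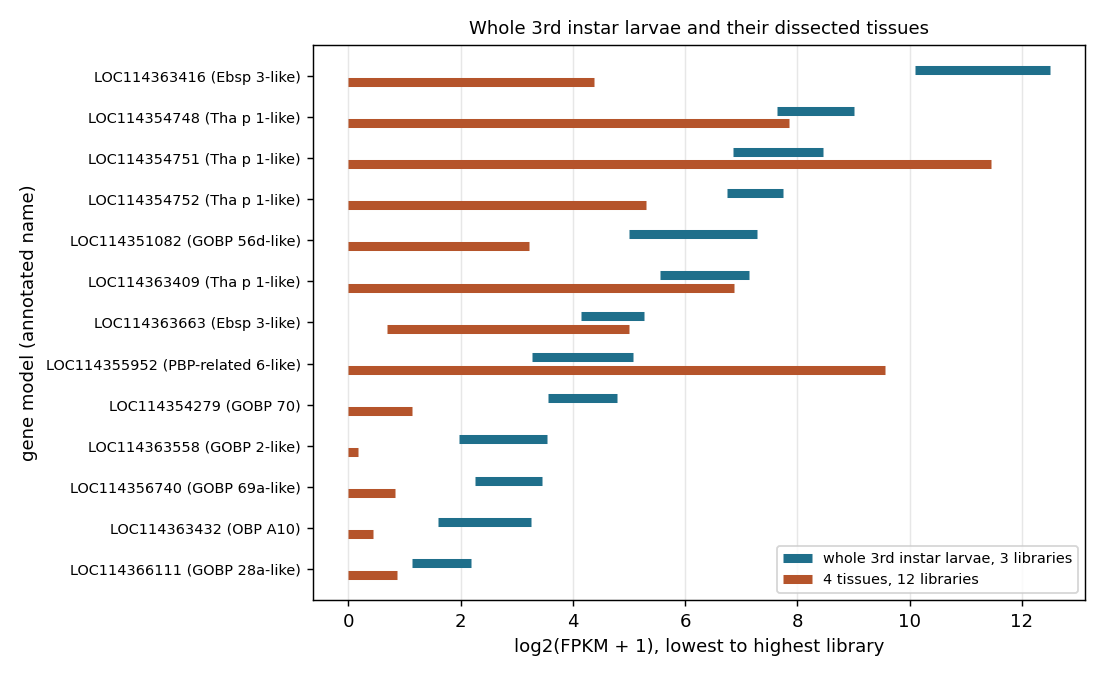
For the 13 genes that passed the filter, the bar pairs give the range of log2(FPKM + 1) over the 3 libraries of whole 3rd instar larvae (blue, upper) and over the 12 libraries of 4 tissues (brown, lower). In 8 genes the bars do not overlap, and in LOC114354751 and LOC114355952 the tissue bar reaches beyond that of the whole larvae.

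Few genes of receptors and sensory neuron membrane proteins reached a mean of 1 FPKM in any 1 stage or tissue. A list of 75 other gene models held those annotated as odorant, gustatory or ionotropic receptors or sensory neuron membrane proteins, 46 of them odorant receptors. Of its genes, 1 reached a mean of 1 FPKM in embryos, 5 in 1st instar, 6 in 3rd instar and 4 in 5th instar larvae. In pupae 2 did, in adults 5, in hemolymph 2, and in midgut, fat body and silk gland 4 each. LOC114366091, the co-receptor that forms channels with the odorant receptors, had 0, 0.0328 and 0 FPKM in adults and at most 0.941 FPKM in any library, and it was not tested. Of the list, 2 of 4 tested genes were higher in the 1st instar than in the embryo, against 34.6% of all gene models tested. Between 5th and 1st instar 0 of 4 differed, where 15% of all gene models were higher and 11.6% lower. In the pupa 1 of 2 was lower than in the 5th instar, against 12.4%. In the adult 3 of 4 were higher than in the pupa, against 21.9%, and 2 of 5 than in the 5th instar, against 20.3%. Higher in the adult than in each other stage were 0 of 3, against 7.93%. A gene could pass the filter through 1 group alone, so these few genes do not describe the list.

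LOC114364472, annotated as sensory neuron membrane protein 2, had 18.7, 32.1 and 44.1 FPKM in adults, against 3.34, 4.26 and 3.67 FPKM in pupae (log2 fold change 2.71 ± 0.31, limma adjusted p = 0.000338). In silk gland it had 74.0, 71.3 and 95.9 FPKM, against at most 1.74 FPKM in any library of the other tissues. That is the tissue in which LOC114355952 was also highest. The sensory neuron membrane protein 2-like genes LOC114357403 and LOC114352950 had at most 4.58 and 3.47 FPKM in any library.

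The adult libraries differed among themselves. Of the 21 genes with an adult mean of at least 1 FPKM, 17 were lowest in adult replicate 1. Among all gene models with such a mean, 32.2% were lowest in that replicate. In replicate 2, 11 of the 21 were highest, against 28.5% of all gene models with such a mean. Scaled by recovered fragments, 17 were again lowest in replicate 1, against 25.1% of all gene models. On that scale 16 were highest in replicate 2, against 45.8%. The summed odorant receptors went another way, with 31.4, 4.66 and 21.8 FPKM in replicates 1, 2 and 3, and the summed vitellogenin and chorion genes were highest in replicate 1. The part of the make-up of the pools in these differences was not tested.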

How the data were processed

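The authors cleaned reads with fastp, aligned them with HISAT2 (2.0.5, per the submitters' processing notes) and named RSEM for expression levels. The deposited table names no unit. Multiplied by gene length, its values were whole multiples of 1 amount per library (100.0% of low values within 0.02 of a whole number), so they are FPKM as deposited by the authors, with a scaling between libraries included, and fragments were recovered from them. The submitters' notes list a mouse genome build, whereas the methods name the build of this species.

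Each pair of groups was tested by limma-trend on log2(FPKM + 1) over gene models that reached 1 FPKM in 3 or more of its 6 libraries. A call needed a p under 0.05 after Benjamini-Hochberg adjustment over every gene model tested, and a size of 1 or more on the log2 scale, as in the methods. In all, 8 pairs of stages and 6 of tissues were fitted. Replicates are pools, so p-values measure the spread between these pools only. Replicate numbers were checked for pairing (deviations from group means, 14 pairs of groups); in 0 pairs did all 3 correlations exceed 0.1, so no block was used.

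Members and gene lists were chosen with earlier results of these data known. Named are all pheromone-binding and GOBP1 or 2 genes, the 6 genes with the highest group mean in each other class, up to 3 called genes in each direction per comparison, and all genes of sets of up to 10; the other members are named to account for them. Of the receptor list, the co-receptor and sensory neuron membrane proteins are named.

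Tested on simulated data in which 200 genes had a log2 change of 2, the method called 197 for 1st instar against embryo, 190 for 5th against 1st instar, 189 for pupa against 5th instar, 192 for adult against pupa, 185 for adult against 5th instar and 184 for silk gland against fat body, and 0 to 10 unchanged genes. Each simulation gave all genes the same spread (squared coefficient of variation of 0.0256 to 0.0799 beyond counting) and left out the deposited scaling. Only genes above a low level of fragments were changed. The result thus does not cover genes with a wider spread or with values near 0. Alternatives were a pseudocount of 0.1, no filter, scaling by recovered fragments, limma-voom on recovered fragments, all libraries in 1 fit, the replicate block and leaving out each library. Python 3.11.15 (numpy 2.4.6, pandas 2.3.3, matplotlib 3.10.9), R 4.3.3 and limma 3.58.1 were used.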

Additional observations from a re-analysis of the deposited data

How the results depend on the processing

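Of the 57 calls of single genes in the 5 stage comparisons, none changed direction under any alternative run (684 values). Most calls kept their side of the threshold; those lost are named in the report. The number of genes higher in the pupa than in the 5th instar was 2 as reported, 1 with no filter, 4 with scaling by recovered fragments and 1 with the replicate block, and 1 to 3 with 1 library left out. The number lower in the 1st instar than in the embryo was 0, and 1 with scaling by recovered fragments, and 0 to 1 with 1 library left out. The number higher in silk gland than in each other tissue was 2, and 1 with limma-voom on recovered fragments, and 1 to 2 with 1 library left out. For genes higher in 5th than 1st instar larvae (3 as reported), leaving out 1 library gave 3 to 5, and it gave 3 to 5 lower in the pupa than in the 5th instar (3 as reported). The cause of these moves was not tested. The replicate block kept 14 of the 15 counts within 1.5 times the reported ones. The number higher in midgut than in each other tissue was 3, and 2 with a pseudocount of 0.1, with no filter, without any 1 of the midgut libraries and without silk gland replicate 1 or 2. The remaining counts moved by less than 1.5 times under every alternative run. Where a group was left with 2 libraries, the filter asked for 2 libraries.

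The filter kept genes near 1 FPKM out of the tests, which leaves LOC114363561 and LOC114363576 without one. The scaling between libraries sets how many fragments make 1 FPKM, so counts of genes above that level are not strictly comparable between stages and tissues.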
